A study of Homo sapiens with 10 samples.

Results

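The 8 genes described here encode transcription factors of the endoderm and foregut: *FOXA1*, *FOXA2*, *FOXA3*, *HNF4A*, *GATA4*, *GATA6*, *SOX2* and *PROX1*. They were taken by name from the 28265 gene symbols of the count data. The rule uses no measured value, but the 8 genes were chosen with earlier results of these data known. All 8 passed the filter on low counts, which left 21014 genes for testing. The data are bulk RNA-seq counts of NKX2-1GFP+ cells that were sorted out of human thyroid organoids on days 16, 23, 31, 38 and 45, with 2 libraries a day and 10 in all. Each library held between 7247268 and 10333933 counts.

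The cells of every group came from 1 human embryonic stem cell line, ESIBIe003-A-6, which carries GFP in one allele of *NKX2-1* and doxycycline-inducible *NKX2-1* and *PAX8* transgenes. In all groups endoderm was induced with Activin A, and both transgenes were then switched on by a short doxycycline pulse that ended before day 16. The labels name c-AMP for days 16, 23 and 31, "TSH DEX" (thyroid-stimulating hormone and dexamethasone) for day 38 and "TSH SB" (with the TGFβ inhibitor SB431542) for day 45. In the study's methods SB431542 was added to the medium with dexamethasone, which the day 45 label leaves out. The study's methods have basal medium up to day 16, which the labels do not show, and cells kept on c-AMP beyond day 31 were not analysed here. Day and medium therefore cannot be told apart from day 31 on and, by the methods, between days 16 and 23. The sort kept GFP+ cells, and several wells were pooled into each sample, so the libraries are replicates of 1 line. All values below describe a sorted mixture, in which fewer cells of a type and less RNA per cell cannot be told apart.

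The FOXA proteins bind closed chromatin of endoderm genes and make it accessible to other factors. GATA4 and GATA6 are zinc-finger proteins that work beside them when endoderm and heart form, and HNF4A is a nuclear receptor that drives the gene programme of liver and gut epithelium. SOX2 marks the anterior foregut, from which esophagus and airway arise, and is also a factor of pluripotent and neural cells. PROX1 is a homeobox protein of liver, pancreas, heart muscle and lymphatic endothelium. The thyroid itself buds from the floor of the foregut.

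Markers of the sorted cells were present in every library. *NKX2-1*, the gene tagged with GFP, was at 86.9 ± 4.36 CPM on day 16 and 62.4 ± 6.12 on day 45 (SD, n = 2), and *TG*, the gene of thyroglobulin, was at 11.2 ± 0.740 CPM on day 16, 206 ± 8.23 on day 31 and 7744 ± 310.1 on day 45. The 8 thyroid markers summed to 1854 and 1457 CPM on day 16 and 9311 and 8828 on day 45, of which *TG* alone was 10.7 and 11.7 and then 7964 and 7525. From day 16 to day 45, 5 of the 8 rose and 3 fell (*FOXE1*, *NKX2-1* and *PAX8*), beside 24.6% of all genes called. Among those that rose, *HHEX* (0.44 on the log2 scale) did not pass without TMM factors (0.35, adjusted p = 0.0619 by edgeR). CPM is the counts-per-million value, with library totals scaled by the trimmed mean of M-values (TMM). The marker *POU5F1* of pluripotent cells had 0 or 1 count in every library. *DPPA4*, *LIN28A* and *TDGF1* of the same list were at 140.5, 33.2 and 6.60 CPM on day 16.

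*FOXA1* had the largest rise of the 8 genes from day 16 to day 45. It lies at chr14:37589552-37596059 on the minus strand (GRCh38). Its level was 0 and 0.616 CPM in the 2 libraries of day 16, 11.6 and 4.80 on day 23, and 27.9 and 17.3 on day 31. On day 38 it was 27.5 and 21.1 CPM, and on day 45 it was 16.3 and 15.0. The libraries of day 16 lay below those of every later day, and those of days 31 and 38 overlapped. The rise from day 16 to day 23 was 4.66 on the log2 scale (SE 0.66, adjusted p = 3.998e-06 by edgeR's quasi-likelihood F test, Benjamini-Hochberg adjusted), and that from day 16 to day 45 was 5.58 (SE 0.65, adjusted p = 2.014e-08). The base of both is 0 and 5 counts on day 16, and with each library left out in turn the estimates ran from 3.72 to 9.16 and from 4.62 to 10.1 with both calls kept. The 9.16 came without day 16 replicate 2, which leaves a base of 0 counts, so the upper ends give no measure of size. The later steps did not pass the test: 1.46 from day 23 to day 31 (SE 0.44, adjusted p = 0.0744 by edgeR) and -0.64 from day 38 to day 45 (SE 0.42, adjusted p = 0.405). The step to day 31 passed without day 16 replicate 1 (1.45, adjusted p = 0.0249 by edgeR), without day 16 replicate 2 (1.46, 0.0252) and without day 23 replicate 1 (2.24, 0.0375).

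The sequence just upstream of a *FOXA1* start is shown because it was 1 of the 2 windows among those searched that held any of 5 short motifs. Windows were the 250 bases before each start given by RefSeq (GRCh38.p14), available for *FOXA1*, *FOXA3*, *GATA6*, *SOX2* and 2 starts of *HNF4A*. Both strands were read, in 35116 such windows in all. The 2 forms of the FOXA motif, TGTTTAC and TGTTTGC, were in 2.98% and 3.23% of them. The GATA motif AGATAA was in 9.17% and the SOX motif AACAAAG in 4.5%. The HNF4 motif CAAAGTCCA was in 0.325%. In *FOXA1*, TGTTTGC on the opposite strand (235 bases before the start) overlapped AACAAAG (232 bases before it), and the capitals mark their joint stretch. The 30 bases shown are chr14:37595465-37595494, minus strand, before a RefSeq start that lies inside the longer GENCODE gene.
FOXA1 upstream stretch: acactgctttGCAAACAAAGtgagggcccc
A match of this kind describes the letters and is neither a bound site nor a cause.

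*FOXA2* was highest on days 31 and 38. The gene lies at chr20:22580998-22585455 on the minus strand. Its level was 1.52 and 2.71 CPM on day 16, 3.21 and 3.09 on day 23, and 22.5 and 13.6 on day 31. It was 14.7 and 10.6 CPM on day 38 and 3.34 and 4.70 on day 45. The libraries of days 31 and 38 lay above those of the other 3 days. They overlapped with each other, and the step between them did not pass (-0.52 on the log2 scale, SE 0.49, adjusted p = 0.563 by edgeR). *FOXA2* was 5.72-fold higher on day 31 than on day 23 (2.52 on the log2 scale, SE 0.53, adjusted p = 0.00431 by edgeR), and it fell by 1.64 on the log2 scale from day 38 to day 45 (SE 0.52, adjusted p = 0.0331). Day 45 against day 16 gave 0.93 (SE 0.55, adjusted p = 0.248 by edgeR), although the libraries of the 2 days did not overlap. The rise lost its call without day 31 replicate 1 (2.11, adjusted p = 0.154 by edgeR) and without day 23 replicate 1 (0.0571) or replicate 2 (0.0618). The fall lost it without day 38 replicate 1 (-1.39, adjusted p = 0.294 by edgeR) or replicate 2 (0.0924), without day 45 replicate 1 (0.188) or replicate 2 (0.0738), and without day 31 replicate 1 (0.0528).

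*LINC00261*, a long noncoding RNA gene on the same strand 2355 bases from *FOXA2* (chr20:22547663-22578642), had a similar course. Its mean was 4.04 ± 2.13 CPM on day 16, 5.77 ± 2.50 on day 23, 21.8 ± 0.494 on day 31, 21.3 ± 4.49 on day 38 and 4.16 ± 1.71 on day 45 (SD, n = 2). It rose by 1.91 on the log2 scale from day 23 to day 31 (SE 0.46, adjusted p = 0.0143 by edgeR) and dropped by 2.37 from day 38 to day 45 (SE 0.47, adjusted p = 0.000502). Both genes changed in the same direction over the same 2 intervals.

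*FOXA3* was the one of the 8 genes with no call in any comparison. It lies at chr19:45863989-45873797 on the plus strand. Its level was 6.97 and 4.19 CPM on day 16, 3.44 and 4.46 on day 23, 3.48 and 2.68 on day 31, 1.51 and 3.14 on day 38, and 0.145 and 3.06 on day 45. The means declined from 5.58 to 1.60 CPM, but the libraries of neighbouring days overlapped, and the 2 of day 45 held 1 and 28 counts. Day 45 against day 16 gave -1.75 on the log2 scale (SE 0.92, adjusted p = 0.180 by edgeR), and the test over any day gave an adjusted p of 0.493. Without day 45 replicate 2 the difference was -5.13 (adjusted p = 0.0120 by edgeR).

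Levels of different genes were compared as RPKM, here CPM divided by the kilobases of annotated exons in GENCODE. Within the FOXA family, *FOXA3* held 85.4% and 63.4% of the summed RPKM in the 2 libraries of day 16, and 10.1% and 12.3% on day 31. *FOXA1* held 0% and 4.49% on day 16, 39.0% and 38.5% on day 31, and 74.0% and 51.7% on day 45. *FOXA2* was highest on day 31, with 51.0% and 49.1%. The family sum was 3.84 and 3.10 RPKM on day 16, 16.2 and 10.2 on day 31, and 4.98 and 6.55 on day 45.

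*HNF4A* was listed at 0 on day 23 and was present from day 31 on. The gene lies at chr20:44355699-44432845 on the plus strand. Counts were 1 and 5 on day 16 and 0 and 0 on day 23, where 3 counts would be 0.333 and 0.343 CPM. On day 31 it was at 9.01 and 6.05 CPM, on day 38 at 10.04 and 9.43, and on day 45 at 10.02 and 6.33. Every library of days 31, 38 and 45 lay above every library of days 16 and 23, and those 3 later days overlapped apart from days 31 and 38. *HNF4A* was at least 22.3-fold higher on day 31 than on day 23, with 3 counts per library as the floor (adjusted p = 2.663e-05 by edgeR). Day 45 against day 16 gave 4.40 on the log2 scale (SE 0.82, adjusted p = 8.63e-05 by edgeR). Both calls were kept without each library in turn, with 3.69 to 5.85 for the second. Days 16 and 23 were both at about the floor, so no fold is given between them, and the steps from day 31 to 38 (0.37, SE 0.63, adjusted p = 0.783 by edgeR) and from day 38 to 45 (-0.26, SE 0.63, adjusted p = 0.877) did not pass. The step from day 16 to day 23 (adjusted p = 0.0746 by edgeR) passed without day 16 replicate 1 (0.0377).

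The gene has 2 starts in RefSeq that lie far apart, and counts per gene do not tell which was used. Both upstream windows are shown for that reason, at chr20:44355449-44355698 and chr20:44400989-44401238 (GRCh38.p14, plus strand). The capitals mark AGATAA, the GATA motif, 26 bases before the upstream start. None of the motifs searched was in the other window.
HNF4A upstream start: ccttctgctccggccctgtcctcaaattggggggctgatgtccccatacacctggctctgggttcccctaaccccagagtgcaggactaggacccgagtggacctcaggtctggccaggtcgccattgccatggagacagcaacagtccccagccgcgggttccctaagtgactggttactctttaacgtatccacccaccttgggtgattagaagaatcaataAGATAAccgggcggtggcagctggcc
HNF4A downstream start: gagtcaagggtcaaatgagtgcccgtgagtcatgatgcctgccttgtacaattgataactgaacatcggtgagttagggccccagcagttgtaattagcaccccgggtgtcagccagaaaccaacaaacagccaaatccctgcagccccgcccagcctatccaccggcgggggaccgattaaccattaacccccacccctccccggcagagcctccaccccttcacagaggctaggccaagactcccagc

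Most liver markers changed over the same interval as *HNF4A*, and some before and after it. From day 16 to day 23, when *HNF4A* had 1 and 5 and then 0 and 0 counts, 4 of 8 rose and none fell (median 1.84), beside 10.9% of all genes called, *SERPINA1*, the gene of α1-antitrypsin, by 5.45 on the log2 scale (SE 0.54, adjusted p = 4.016e-09 by edgeR), while *TTR* and *APOB* did not pass by DESeq2 (adjusted p = 0.101 and 0.323). From day 23 to day 31, 6 of 8 rose and none fell, with a median log2 fold change of 2.66, beside 2.25% of all genes, and *TTR* and *APOB* did not pass by DESeq2 (adjusted p = 0.502 and 0.231). *ALB*, the gene of albumin, rose from 0.0554 ± 0.0784 to 22.6 ± 1.81 CPM, the first being 1 count in 2 libraries, and *AFP*, the gene of α-fetoprotein, rose from 10.3 ± 4.60 to 61.0 ± 15.3 (SD, n = 2). Their summed level was 14.2 and 14.8 CPM on day 16, 61.6 and 51.8 on day 23, 327 and 308 on day 31, 365 and 175 on day 38, and 587 and 575 on day 45. *SERPINA1* was the most abundant by day mean on days 31, 38 and 45. *APOA2* was at 0 in both libraries of day 16, *ALB* in 1 of day 23, and *AHSG* in 5 libraries. While *HNF4A* passed no test from day 31 on, 5 of the 8 fell from day 31 to day 38, beside 15% of all genes called, among them *TTR*, the gene of transthyretin (-3.73, SE 0.54, adjusted p = 2.414e-06 by edgeR), and *APOB* and *AHSG* did not pass by DESeq2 (adjusted p = 0.369 and 0.146). Over the same interval *SERPINA1* rose by 1.01 (SE 0.22, adjusted p = 0.00113 by edgeR), and from day 38 to day 45, 3 of 8 rose and none fell, beside 11.2% of all genes. The part of liver-like cells in the *HNF4A* values was not tested.

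Per kilobase *GATA6* was the highest of the 8 genes on every day, and it fell between days 31 and 38. The gene lies at chr18:22169589-22202528 on the plus strand. It was at 58.7 and 63.9 CPM on day 16, 76.6 and 92.8 on day 23, 93.8 and 113 on day 31, 51.7 and 59.2 on day 38, and 49.5 and 48.9 on day 45. No library of one day overlapped with those of the next. The fall from day 31 to day 38 was 0.90 on the log2 scale, to 0.536 of the level (SE 0.18, adjusted p = 0.000394 by edgeR), and it held without each library in turn (-1.03 to -0.77). The steps up to day 31 were 0.47 (SE 0.18, adjusted p = 0.0964 by edgeR) and 0.29 (SE 0.18, adjusted p = 0.566). *GATA6-AS1*, on the opposite strand at chr18:22164886-22169878, overlaps the gene, and 94 exon bases (2.47% of those of *GATA6*) are common to both. Another opposite-strand gene covers 8.45% of its exon bases. The strand setting of the counting was not stated, so reads in these stretches are uncertain. *GATA6-AS1* was at 9.37 ± 0.513 CPM on day 16, 9.76 ± 3.81 on day 31, 3.16 ± 1.34 on day 38 and 2.71 ± 1.51 on day 45 (SD, n = 2). Day 45 against day 16 passed (-1.80 on the log2 scale, SE 0.61, adjusted p = 0.0275 by edgeR). The step from day 31 to day 38, where *GATA6* fell, did not (-1.62, SE 0.60, adjusted p = 0.0661).

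*GATA4* rose over the interval in which *GATA6* fell. It lies at chr8:11676959-11760002 on the plus strand. Its level was 3.04 and 3.82 CPM on day 16, 2.33 and 4.92 on day 23, and 6.04 and 3.84 on day 31. It was 16.1 and 16.2 CPM on day 38 and 12.5 and 8.30 on day 45. Both later days lay above the 3 earlier ones without overlap. The step from day 31 to day 38 was 3.25-fold (1.70 on the log2 scale, SE 0.52, adjusted p = 0.0226 by edgeR) and day 45 against day 16 was 3.01-fold (1.59, SE 0.54, adjusted p = 0.0272). With any of the 4 libraries of days 31 and 38 left out, the first lost its call (1.41 to 2.07, adjusted p = 0.0514 to 0.174 by edgeR). The second lost it without day 16 replicate 1 (adjusted p = 0.135 by edgeR) or replicate 2 (0.0633), day 38 replicate 1 (0.0568) or replicate 2 (0.0577), and day 45 replicate 1 (1.27, 0.168). *GATA4* held 5.22% and 2.82% of the GATA RPKM sum on day 31 and 21.0% and 19.0% on day 38.

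Some cardiovascular markers rose over the same interval as *GATA4*. Of 7 measured, 3 rose and 1 fell from day 31 to day 38, beside 15% of all genes, with a median log2 fold change of 1.57 when genes listed at 0 are set at their bound. *MYH6*, a heart myosin, rose from 15.5 ± 5.99 to 92.5 ± 7.61 CPM, and *ACTA2*, the actin of smooth muscle, from 1.79 ± 1.38 to 26.1 ± 7.09 (SD, n = 2). The one that fell was *TBX5*, a factor of heart and limb and the most abundant of the list by day mean on days 16, 23 and 31, from 16.8 ± 3.75 to 2.26 ± 1.23 CPM (-2.87, SE 0.52, adjusted p = 9.781e-05 by edgeR). The summed level was 39.7 and 37.7 CPM on day 16, 48.4 and 39.2 on day 23, 48.8 and 49.8 on day 31, 182 and 183 on day 38, and 163 and 174 on day 45. *NKX2-5*, the defining cardiac factor, was at 0 in 5 libraries, all of day 16, 23 or 31. The 5 fibroblast markers summed to 308 and 383 CPM on day 31 and to 1278 and 1281 on day 38, and 2 rose and 1 fell over this interval, of which *PDGFRA* (1.04) did not pass without TMM factors (0.82, adjusted p = 0.0886 by edgeR). *COL1A2* rose from 182 ± 39.8 to 1157 ± 8.76 CPM, while *LUM* fell by 1.23 on the log2 scale (SE 0.18, adjusted p = 2.803e-06 by edgeR). The part of these cells in the *GATA4* values was not tested.

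*SOX2* rose from day 23 to day 31 and fell from day 38 to day 45. The gene lies at chr3:181711925-181714436 on the plus strand, inside *SOX2-OT* and sharing no exon base with it. It was at 10.02 and 1.60 CPM on day 16, 2.77 and 3.09 on day 23, 10.95 and 15.2 on day 31, 24.0 and 21.3 on day 38, and 5.37 and 5.90 on day 45. The 2 libraries of day 16 stood apart from each other, with 79 and 13 counts. *SOX2* was 4.45-fold higher on day 31 than on day 23 (2.15 on the log2 scale, SE 0.55, adjusted p = 0.0248 by edgeR) and fell by 2.0 from day 38 to day 45 (SE 0.53, adjusted p = 0.00929). Day 38 against day 31 gave 0.79 (SE 0.50, adjusted p = 0.344 by edgeR), with libraries that did not overlap. Each call was lost without any 1 of its 4 libraries (1.89 to 2.37, adjusted p = 0.0918 to 0.191, and -2.09 to -1.92, 0.0519 to 0.0829, by edgeR). Day 23 against day 16 was -0.98 (SE 0.56, adjusted p = 0.298 by edgeR), 0.88 without day 16 replicate 1 and -1.77 without replicate 2 (adjusted p = 0.0223). Day 45 against day 16 was -0.04 (SE 0.54, adjusted p = 0.981 by edgeR) and 1.80 without day 16 replicate 1 (adjusted p = 0.0401).

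The marker lists of other *SOX2* cell types had these levels. The 6 neural markers summed to 41.7 and 34.4 CPM on day 16, 22.5 and 28.9 on day 23, 35.9 and 35.6 on day 31, 49.1 and 35.5 on day 38, and 46.2 and 45.4 on day 45, with *SOX1* at 0 in 5 libraries. *NES* was their most abundant gene up to day 31 (22.1 CPM on day 31) and *TUBB3* on days 38 and 45 (24.8 and 25.2 CPM). From day 23 to day 31 none of the 6 passed the test. The 5 airway basal markers summed to 25.6 and 17.7 CPM on day 16, 14.4 and 7.77 on day 23, 18.3 and 29.9 on day 31, 32.5 and 28.6 on day 38, and 57.9 and 45.3 on day 45. *KRT5*, a basal-cell keratin and their most abundant gene by day mean on days 31, 38 and 45, was at 0.0634 CPM on day 16 and 0.0572 on day 23. It was 9.38 ± 7.63 CPM on day 31 and 32.5 ± 6.15 on day 45 (SD, n = 2), and *KRT14* was at 0 in 5 libraries. From day 23 to day 31 *KRT5* was the only 1 of the 5 called (adjusted p = 2.58e-06 by edgeR), beside 2.25% of all genes. *TP63* fell from 12.9 ± 3.27 CPM on day 16 to 3.11 ± 1.58 on day 23 (-2.05, SE 0.55, adjusted p = 0.0104 by edgeR). *KRT15* was at 7.41 ± 3.51 CPM on day 16 and 2.71 ± 0.277 on day 45, with no call. The pluripotent markers summed to 186 and 175 CPM on day 16, 143 and 132 on day 23, 108 and 97.3 on day 31, 20.4 and 21.0 on day 38, and 6.24 and 9.50 on day 45. *DPPA4* was 141 and 140 CPM of the day 16 sums and 6.24 and 8.74 of those of day 45. The part of these cells in the *SOX2* values was not tested.

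*PROX1* fell from day 16 to day 23 and was, per kilobase, the second highest of the 8 genes on days 16, 23 and 45. The gene lies at chr1:213983181-214041510 on the plus strand, with 1.83% of its exon bases also in *PROX1-AS1*. Its level was 80.1 and 68.2 CPM on day 16, 45.2 and 38.9 on day 23, 32.5 and 40.0 on day 31, 42.3 and 34.3 on day 38, and 54.9 and 53.2 on day 45. Days 23, 31 and 38 overlapped, and day 45 lay between them and day 16. The fall from day 16 to day 23 was 0.82 on the log2 scale (SE 0.21, adjusted p = 0.00781 by edgeR). It lost its call without day 16 replicate 1 (-0.68, adjusted p = 0.0708 by edgeR) and without day 23 replicate 2 (-0.71, 0.120). From day 38 to day 45 the difference was 0.49 (SE 0.21, adjusted p = 0.146 by edgeR), and from day 16 to day 45 it was -0.46 (SE 0.21, adjusted p = 0.116). The 5 endothelial and lymphatic markers summed to 16.6 and 20.1 CPM on day 16, 20.9 and 15.2 on day 23, 10.3 and 18.2 on day 31, 35.3 and 37.4 on day 38, and 31.1 and 27.7 on day 45. *FLT4* was their most abundant gene by mean on every day and *PECAM1*, the defining endothelial marker, was at 0 in 7 libraries, among them all 6 of days 16, 23 and 31.

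**Figure D1:**
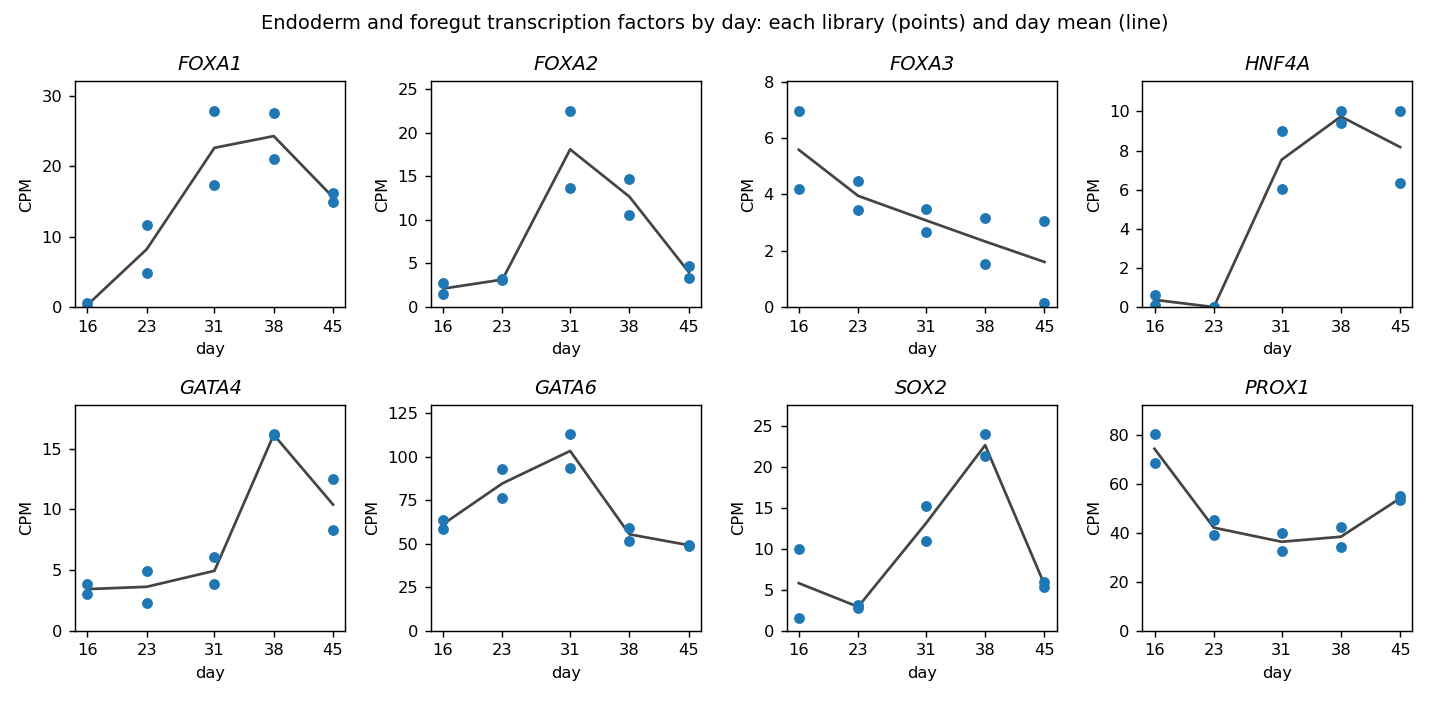
CPM by day for each of the 8 genes, with each library as a point and the day mean as a line, each panel on its own axis from 0. *FOXA1* and *HNF4A* are near 0 on day 16, and *FOXA2* is highest on days 31 and 38, whose libraries overlap. *GATA4* and *SOX2* have their highest mean on day 38, and *PROX1* is highest on day 16.

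Taking the intervals in turn, 2 of the 8 genes passed the test from day 16 to day 23, *FOXA1* up and *PROX1* down, where 10.9% of the 21014 genes did (5.6% higher and 5.33% lower). From day 23 to day 31, the interval with the fewest calls (2.25% of genes, 1.58% higher and 0.666% lower), 3 of 8 rose: *FOXA2*, *HNF4A* and *SOX2*. From day 31 to day 38, *GATA4* rose and *GATA6* fell (15% of genes passed, 8.8% higher and 6.23% lower). From day 38 to day 45 *FOXA2* and *SOX2* fell (11.2% of genes passed, 4.85% higher and 6.35% lower). Between day 16 and day 45, 3 of 8 rose, *FOXA1*, *HNF4A* and *GATA4*, beside 24.6% of genes called, 12.9% higher and 11.7% lower. A difference among any of the days was called for 7 of 8, all except *FOXA3*, beside 36.3% of all genes.

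The median log2 fold change of the genes was 0.08 from day 16 to day 23 over the 7 other than *HNF4A*, which was at the floor on both days. It was 0.96 from day 23 to day 31, 0.09 from day 31 to day 38, and -0.57 from day 38 to day 45. All tested genes had medians of -0.02, 0.00, 0.00 and -0.02 over the same intervals. Without each library in turn, the number of the 8 called was 1 to 3, 1 to 4, 1 to 2 and 0 to 2 in the 4 intervals. *GATA6* in the third interval, *FOXA1* in the first and *HNF4A* in the second were the calls of an interval kept without any library.

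**Figure D2:**
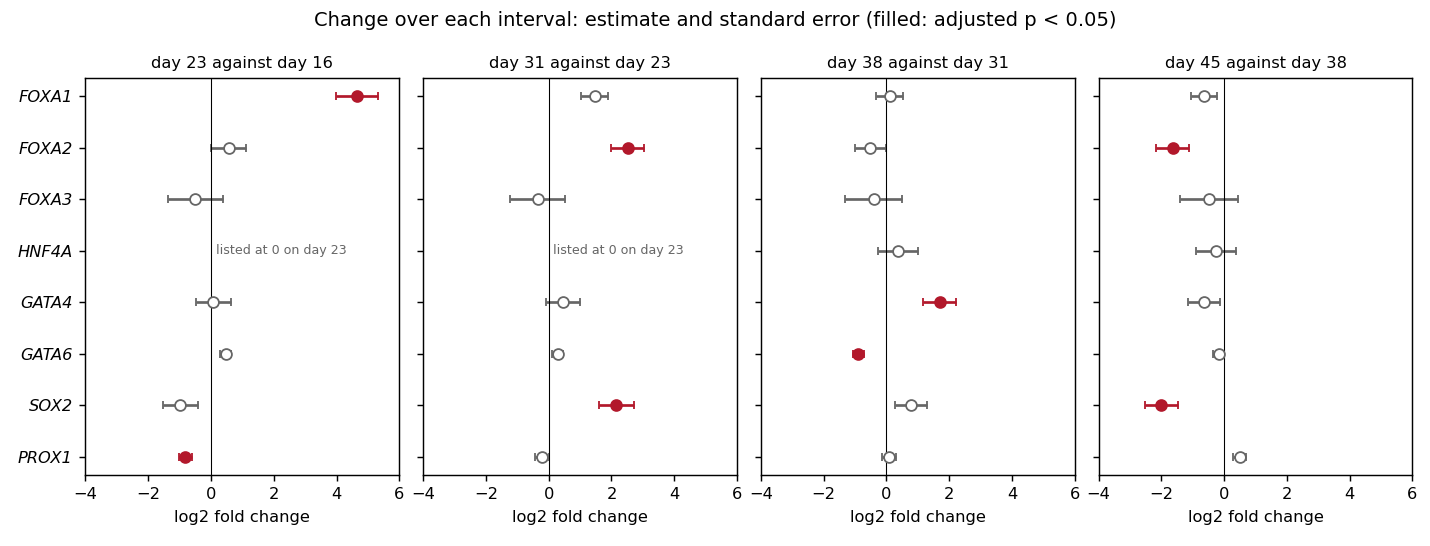
Log2 fold change over each interval for the 8 genes (points, with bars of 1 standard error) and filled points for an adjusted p under 0.05 by edgeR. *HNF4A* has no point where day 23 is compared, since it was listed at 0 there, and no gene is filled in all 4 intervals.

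Per kilobase, the order of the 8 genes changed over time below *GATA6*, which led on every day at 16.1, 22.3, 27.2, 14.6 and 13 RPKM with no overlap with the next. On day 16 it was followed by *PROX1* (8.33 RPKM), then by *FOXA3*, *SOX2*, *FOXA2* and *GATA4* (2.62 to 0.772), whose libraries overlapped between neighbours, and by the overlapping *FOXA1* and *HNF4A* (0.0697 and 0.0365). On day 23 *PROX1* (4.72) stood above *FOXA1* and *FOXA3* (both 1.86, overlapping), *SOX2* and *FOXA2* (1.17 and 1.16, overlapping) and *GATA4* (0.815). The libraries of *FOXA1* also overlapped with those of *SOX2*, *FOXA2* and *GATA4* on that day, and *GATA4* with *SOX2*. On day 31 *FOXA2*, *SOX2*, *FOXA1* and *PROX1* (6.64, 5.21, 5.13 and 4.08 RPKM) followed, each overlapping with its neighbour in this order, while both libraries of *FOXA2* lay above both of *PROX1*. They stood above *FOXA3*, *GATA4* and *HNF4A* (1.45, 1.11 and 0.740), of which *GATA4* overlapped with the other two and *FOXA3* and *HNF4A* did not overlap. On day 38 *SOX2* was second (9.01 RPKM), above *FOXA1*, *FOXA2* and *PROX1* (5.51, 4.65 and 4.31, of which *FOXA2* overlapped with the other two, with *FOXA1* above *PROX1*), *GATA4* (3.63) and the overlapping *FOXA3* and *HNF4A* (1.09 and 0.958). On day 45 *PROX1* was second again (6.07 RPKM), then *FOXA1* (3.54), *GATA4* and *SOX2* (2.34 and 2.24, overlapping), *FOXA2* (1.48) and *HNF4A* and *FOXA3* (0.804 and 0.753, overlapping), with *FOXA3* also overlapping *FOXA2*. *HNF4A* has 10167 annotated exon bases but only 4739 in its longest transcript, so its place depends on the length used.

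Of the 4 thyroid factors, 3 changed in the first interval and 3 in the last, beside 10.9% and 11.2% of all genes, and *PAX8* passed in neither (adjusted p = 0.0580 and 0.984 by edgeR). *HHEX*, an endoderm homeobox gene, rose from 115 ± 26.3 to 364 ± 2.0 CPM between days 16 and 23 (1.67 on the log2 scale, SE 0.14, adjusted p = 1.555e-10 by edgeR), and *NKX2-1* rose by 0.64 (SE 0.15, adjusted p = 0.00358). *FOXE1*, a forkhead factor of the thyroid bud, fell by 1.18 (SE 0.14, adjusted p = 7.346e-08 by edgeR). No thyroid factor of 4 passed from day 23 to day 31 or from day 31 to day 38 (medians -0.03 and -0.04), beside 2.25% and 15% of all genes. From day 38 to day 45, 3 of 4 fell (median -0.84), *NKX2-1* by 1.20 (SE 0.15, adjusted p = 6.305e-07 by edgeR), while *PAX8* was at 514 ± 18.8 and 518 ± 25.3 CPM.

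Among lung and airway factors, 4 of 13 rose and 1 fell from day 23 to day 31 (median 0.83), beside 2.25% of all genes called. *SOX9*, a factor of lung bud tips, rose from 17.0 ± 0.850 to 58.1 ± 3.41 CPM and *ETV5*, a target of FGF signalling, from 39.3 ± 2.24 to 101 ± 7.34 (SD, n = 2). From day 31 to day 38, 2 rose and 6 fell (median -0.16), beside 15% of all genes, with *ETV5* down by 2.77 (SE 0.26, adjusted p = 3.073e-10 by edgeR) and *EHF*, an epithelial ETS factor, up from 0.458 ± 0.504 to 18.6 ± 1.31 CPM. The first interval had 4 up and 1 down (median 0.33) and the last 2 up and 3 down (median -0.07), beside 10.9% and 11.2% of all genes. The 7 distal lung markers summed to 53.4 and 31.6 CPM on day 16, 212 and 207 on day 23, 613 and 625 on day 31, 132 and 132 on day 38, and 122 and 155 on day 45, with *SFTPC* at 0 in 9 of 10 libraries. *SFTPB*, a surfactant protein gene, was at 3.55 and 1.48 CPM on day 16, 165 and 149 on day 23, 499 and 502 on day 31, 6.59 and 8.62 on day 38, and 46.2 and 50.2 on day 45. It rose from day 16 to day 23 (5.96 on the log2 scale, SE 0.23, adjusted p = 9.459e-20 by edgeR), from day 23 to day 31 (1.68, SE 0.16, adjusted p = 1.239e-08) and from day 38 to day 45 (2.67, SE 0.20, adjusted p = 7.719e-12), and fell from day 31 to day 38 (-6.04, SE 0.21, adjusted p = 1.409e-21 by edgeR). On day 38 *ABCA3*, a lipid transporter of lung epithelium, made up most of the sum (122 and 118). The 5 goblet markers summed to 9.53 and 16.1 CPM on day 23, 161 and 141 on day 31, 87.6 and 63.5 on day 38, and 157 and 132 on day 45. *AGR2* alone was 156 and 135 CPM of the day 31 sums. It was the only 1 of the 5 called from day 23 to day 31 (3.84 on the log2 scale, SE 0.28, adjusted p = 3.783e-11 by edgeR), beside 2.25% of all genes. From day 31 to day 38, 2 of the 5 rose and 1 fell, beside 15% of all genes called. *MUC5AC*, a mucin, rose from 1.17 ± 0.510 to 25.8 ± 5.52 CPM (4.43, SE 0.73, adjusted p = 2.803e-05 by edgeR) and fell to 1.26 ± 1.16 on day 45 (-4.30, SE 0.73, adjusted p = 6.242e-05 by edgeR). *MUC5B*, another mucin, rose from day 31 to day 38, from 2.89 ± 2.50 to 15.1 ± 2.76 (2.41, SE 0.50, adjusted p = 0.000651 by edgeR and 0.0746 by DESeq2). *AGR2* fell by 2.17 on the log2 scale from day 31 to day 38 (SE 0.25, adjusted p = 3.921e-08 by edgeR), and on day 45 it was at 63.5 ± 17.5 CPM beside *MUC5B* at 72.0 ± 34.8 (SD, n = 2). The part of such cells in the *FOXA1* and *FOXA2* values was not tested.

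Of 15 liver, pancreas, stomach and gut factors, 14 were tested and 2, 1, 3 and 2 changed in the 4 intervals, beside 10.9%, 2.25%, 15% and 11.2% of all genes. *ONECUT2*, a homeobox factor that liver and pancreas use, rose with *HNF4A* from 4.60 ± 1.33 to 43.5 ± 0.167 CPM between days 23 and 31 (3.24 on the log2 scale, SE 0.49, adjusted p = 5.758e-05 by edgeR and 0.0522 by DESeq2). It was the only one of the 14 called in that interval (median 0.57). From day 16 to day 23, when *HNF4A* was at about the floor, *ONECUT2* had also risen, from a base of 0 and 19 counts. That step was 1.95 (SE 0.59, adjusted p = 0.0259 by edgeR and 0.241 by DESeq2). *ONECUT2* was lower on day 38 than on day 31 (-1.37, SE 0.45, adjusted p = 0.0324 by edgeR and 0.396 by DESeq2). *HNF4G*, the paralog of *HNF4A*, was higher on day 45 (8.69 ± 5.93 CPM) than on day 16 (0.561 ± 0.0767), by 3.92 (SE 0.78, adjusted p = 0.000194 by edgeR).

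*SOX17*, the classic marker of definitive endoderm, had 0 to 3 counts in every library and was not tested. Of the 7 early endoderm factors tested, 3 fell and none rose between days 16 and 45, beside 24.6% of all genes called, *OTX2* from 19.5 ± 4.03 to 1.33 ± 0.794 CPM, *MIXL1* and *FOXH1*. *OTX2* also rose between days 31 and 38 (1.66, SE 0.53, adjusted p = 0.0275 by edgeR, 0.0562 without TMM factors). Of 6 pharyngeal factors tested, 2 fell and none rose over the whole course: *ISL1*, a factor of pharyngeal endoderm and second heart field, by 3.34 on the log2 scale (SE 0.20, adjusted p = 3.065e-15 by edgeR) and *EYA1* by 3.24 (SE 0.26, adjusted p = 5.201e-12). *ISL1* first rose from 93.9 ± 18.0 to 163 ± 6.35 CPM between days 16 and 23 (0.79, SE 0.17, adjusted p = 0.00143 by edgeR). The medians of these lists were -2.14, with genes at 0 set at their bound, and 0.48, beside 0.00 for all genes.

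**Figure D3:**
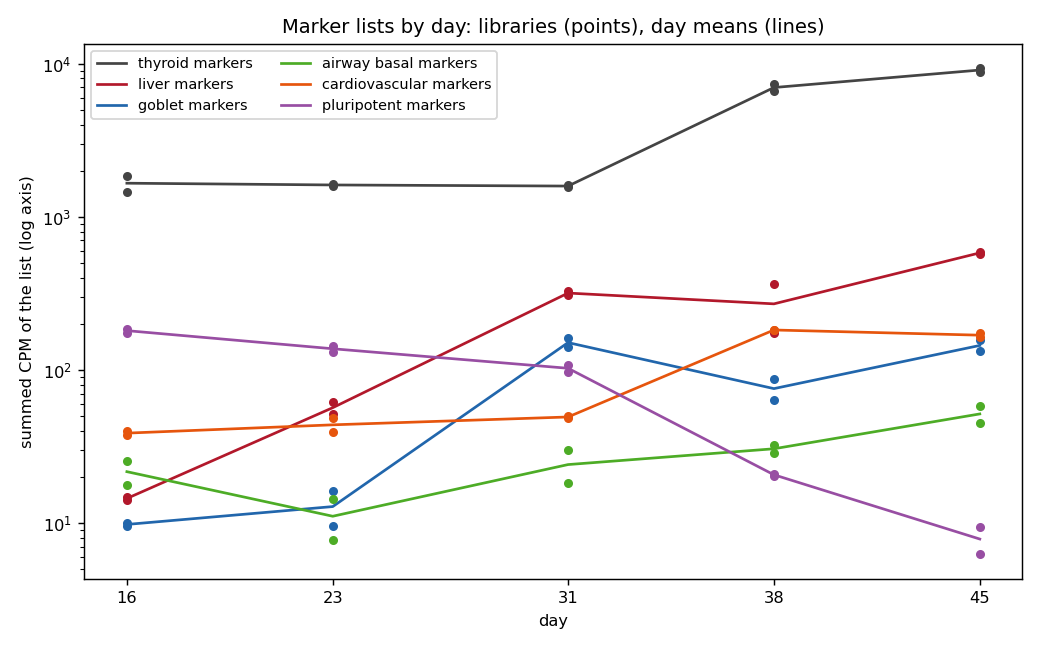
Summed CPM (log axis) of 6 marker lists by day, with each library as a point and day means as lines. The sums of liver and goblet markers are higher on day 31 than on day 23, the goblet sum being mostly *AGR2* on day 31. Those of thyroid markers (mostly *TG* on day 38) and cardiovascular markers are higher on day 38 than on day 31. The sum of pluripotent markers is lowest on day 45.

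The genes closest in course to each of the 7 genes called for any day were named by Pearson's r of log2 CPM over the 10 libraries, among 13114 genes with a mean of at least 5 CPM. These are the top 3 of many candidates over 5 pairs of libraries and carry no p. *FOXA1* was closest to *NFIX* (r = 0.986), *CLIP4* (0.985) and *SFTA3* (0.970). *FOXA2* was closest to *ST8SIA4* (0.938), *RAI14* (0.936) and *TRAK2* (0.924). *HNF4A* was closest to *ALB* (0.970), *MBNL1* (0.949) and *RAP1GDS1* (0.948). *GATA4* was closest to *RAD23B* (0.971), *ACTA2* (0.971) and *LOX* (0.962), and *LOX*, which crosslinks collagen, went from 17.6 CPM on day 31 to 134 on day 38. *GATA6* was closest to *TAF15* (0.973), *PCNT* (0.973) and *NLGN1* (0.966). *SOX2* was closest to *VKORC1* (0.918), *LINC01184* (0.910) and *AKNA* (0.894), and *PROX1* to *UCP2* (0.939), *RBM24* (0.936) and *BEST1* (0.935). No difference among the days was called for *RAP1GDS1* (adjusted p = 0.446 by edgeR), *BEST1* (0.397), *LINC01184* (0.142) or *AKNA* (0.0913). The value of r does not give the size of a change: *RAP1GDS1* went only from 31.9 CPM on day 23 to 39.8 on day 31.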

How the data were processed

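Per the labels and the study's methods, NKX2-1GFP+ cells were sorted, libraries were made with a low-input NuGEN kit, and reads were processed with Trimmomatic, HISAT2 (GRCh38.p13, also named in the submitters' processing notes) and HTSeq. Versions and the strand setting are not given in the sources used here. The authors deposited raw counts per gene for 10 libraries, with no normalization.

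A gene was tested if 2 or more libraries held 5 or more counts of it, with edgeR 4.0.16 (quasi-likelihood F test, TMM factors, 1 mean per day, 5 residual degrees of freedom, Benjamini-Hochberg adjustment over 21014 genes, threshold 0.05) in R 4.3.3 with limma 3.58.1. SD and n = 2 refer to the 2 libraries of a day. P-values measure only the spread between these libraries. Replicate counts differed beyond sampling noise on every day (chi-square per degree of freedom 7.34 to 12.3). A floor of 3 counts is 0.307 to 0.436 CPM and covers counting error only.

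Lengths and positions came from GENCODE (GRCh38) and upstream sequence from RefSeq. No 50-base exon stretch was shared between the 8 genes; 1.07% of those of HNF4A and 2.03% of those of SOX2 occur in other genes. The 8 genes, the lists and the marker genes were chosen with earlier results of these data known. The text names the 8 genes, list genes past the threshold in any comparison, and the 3 genes closest in pattern. Other genes are named beside them, chosen after their values were seen. These are defining markers at or near 0 (POU5F1, SOX17, SFTPC, PECAM1, SOX1, NKX2-5), some markers with no call (CDX2 and CDX1 among them), and marker genes that moved against or led their list (TBX5, LUM, MUC5AC and MUC5B among them). Alternatives were DESeq2 1.42.0, other scalings and filters, the 4 libraries of a comparison alone, a replicate block, another gene length, and leaving out each library. Some list genes are not reported here.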

Additional observations from a re-analysis of the deposited data

How the results depend on the processing

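Over 7 alternatives to the test, scaling and filter, 272 of 279 results for the 8 genes kept their direction and side of the threshold, and the test of HNF4A from day 16 to day 23 could not be fitted on those 4 libraries alone, where too few counts passed the filter. Without TMM factors, FOXA1 and PROX1 reversed from day 31 to day 38 (-0.12 and -0.14), and PROX1 passed from day 16 to day 45 (-0.56, adjusted p = 0.0494 by edgeR). GATA4 lost its call from day 16 to day 45 with only those 4 libraries (1.58, adjusted p = 0.0628 by edgeR). FOXA1 passed from day 23 to day 31 with no filter (1.45, adjusted p = 0.0143 by edgeR). With the longest annotated transcript as length, 4 of 8 genes kept their rank in RPKM on days 31 and 38. Without TMM factors the median of all genes from day 31 to day 38 was -0.20, and calls were 1182 higher and 2368 lower against 1850 and 1310. From day 16 to day 45 the same change gave 2348 higher and 2879 lower against 2721 and 2454, with a median of -0.09.

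Replicate numbers did not pair the samples: differences between replicates correlated by -0.0320 to 0.0199 between days, with 0 of 10 pairs of days over 0.1. A replicate block gave 2703, 678, 3472, 2691 and 5460 calls from day 16 to 23, 23 to 31, 31 to 38, 38 to 45 and 16 to 45, and 8239 for any day. It added FOXA1 from day 23 to day 31 (1.49, adjusted p = 0.00821 by edgeR) and reversed SOX2 from day 16 to day 45 (0.064).

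Without each library in turn, genes called ranged from 1350 to 2383, 206 to 646, 1764 to 3614 and 1166 to 2816 in the 4 intervals, 3969 to 5222 from day 16 to day 45, and 6331 to 7763 for any day. Of the 8 genes, 1 to 3, 1 to 4, 1 to 2, 0 to 2, 2 to 4 and 7 to 7 were called. Results that changed sign in some of these repeats were FOXA1 from day 31 to 38 (-0.21 to 0.49), FOXA3 from day 31 to 38 (-1.02 to 0.029) and day 38 to 45 (-3.87 to 0.40), HNF4A from day 38 to 45 (-0.62 to 0.042), GATA4 from day 16 to 23 (-0.56 to 0.52), PROX1 from day 31 to 38 (-0.078 to 0.23), and SOX2 from day 16 to 23 (-1.77 to 0.88) and from day 16 to 45 (-0.83 to 1.80). The cause of these changes was not tested. FOXA1 (0 and 5) and HNF4A (1 and 5) had few counts on day 16, so estimates against that day have wide errors.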

Other observations

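A list of 9 genes was set beside the FOXA, GATA and HNF4 proteins as partners, cofactors as well as nuclear receptors. Of these 9, 8 differed between days 16 and 45, 6 higher and 2 lower, beside 24.6% of all genes. The median of the 9 was 0.78 on the log2 scale. *PPARGC1A*, a coactivator of HNF4A in liver, rose in both later intervals, from 18.7 ± 0.389 CPM on day 31 to 65.9 ± 11.7 on day 38 (1.82, SE 0.23, adjusted p = 3.461e-07 by edgeR) and to 121 ± 35.6 on day 45 (0.88, SE 0.22, adjusted p = 0.00598). *NR2F2*, a nuclear receptor of foregut mesenchyme and endoderm, rose from 59.4 ± 2.04 to 106 ± 15.5 CPM between days 23 and 31 (0.83, SE 0.18, adjusted p = 0.00484 by edgeR). *ZFPM2*, which binds GATA4, was at 62.6 ± 3.96 CPM on day 23 and 13.8 ± 4.78 on day 45, and *TLE3*, a corepressor, fell by 1.22 from day 31 to day 38 (SE 0.18, adjusted p = 4.899e-06 by edgeR) and rose by 1.39 to day 45 (SE 0.18, adjusted p = 8.874e-07).

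Of the other GATA genes, *GATA2* and *GATA3* fell over the course. *GATA3*, a factor of many epithelia and of T cells, went from 118 ± 18.1 CPM on day 16 to 66.5 ± 3.02 on day 31 and 19.5 ± 5.26 on day 45, with the fall from day 31 to day 38 of 1.64 (SE 0.21, adjusted p = 2.307e-07 by edgeR). *GATA2* went from 22.9 ± 10.5 to 4.41 ± 2.38 CPM between days 16 and 45 (-2.39, SE 0.66, adjusted p = 0.00655 by edgeR). These were the 2 of 7 other family members called, beside 24.6% of all genes, with a median of -1.86 when genes at 0 are set at their bound. Of the gut markers, 2 of 5 rose over the course, *VIL1* and *LGR5*, beside 24.6% of all genes called. The 5 summed to 24.1 and 13.5 CPM on day 16 and 53.6 and 58.1 on day 45. *CDX1*, *FABP2* and *CDX2*, a gut factor, did not pass over the course, with *CDX2* at 3.32 ± 0.687 and 3.20 ± 0.816 CPM (SD, n = 2). *VIL1* rose from day 23 to day 31 (1.68, adjusted p = 0.00910 by edgeR). It fell by 1.69 to day 38 (adjusted p = 0.00159 by edgeR) and rose by 1.22 to day 45 (0.0321).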
